A study of Homo sapiens with 31 samples.

Results

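Immediate early genes are described here by 8 members: FOS, FOSL1, JUN, JUNB and JUND, whose proteins pair into the transcription factor AP-1, the zinc finger transcription factor EGR1, the nuclear protein IER2, and the dual-specificity phosphatase DUSP1. They were chosen by name as a class and were found in the deposited tables by transcript identifier. Each was kept only where the deposited length lay within 5 units of its protein's length in residues minus 9. The transcripts were ENST00000303562.9 (FOS), ENST00000312562.7 (FOSL1), ENST00000371222.4 (JUN), ENST00000302754.6 (JUNB), ENST00000252818.5 (JUND), ENST00000239938.5 (EGR1), ENST00000292433.4 (IER2) and ENST00000239223.4 (DUSP1). All 8 met this rule, of 35499 transcripts that remained when 1 transcript per locus was kept (227264 were listed). The 31 libraries came from HEK293 T-REx, a line derived from human embryonic kidney that carries a switch for turning on a transgene, and the series deals with eIF4A1, LARP1 and translation when the kinase complex mTORC1 is inhibited.

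The groups were as follows. Ribosome profiling, which counts the RNA fragments that ribosomes protect from nuclease (footprints), covered naive, EIF4A1 knockout (KO) and EIF4A2 KO cells. Each genotype had 2 libraries from cells given DMSO, 1 from cells given 1 µM PP242 and 1 from cells given 10 µM PP242, with 30 min of treatment. RNA-seq had 2 libraries of naive cells and 2 of EIF4A1 KO cells, with no named treatment. For RNA pulldown, the cells expressed either SBP-eIF4A1 or SBP-eIF4A2, in which a streptavidin-binding tag lets the factor be caught on beads, with 2 input and 2 pulldown libraries each. A separate set from SBP-eIF4A1 cells after 72 h of siRNA had 2 inputs and 2 pulldowns with control siRNA (siControl), and 2 inputs and 1 pulldown with LARP1 siRNA (siLARP1). Whether a KO line is 1 clone is not given in the sources used here, the knockouts and the knockdown rest on the labels, and a pulldown from untagged cells was not analysed here. Nothing in the labels says that replicates came from separate cultures, so the p-values measure the spread between these libraries, which may be technical. Titles number replicates as rep for EIF4A2 KO, SBP-eIF4A2 and RNA-seq libraries, and as replicate for the others. Whether these sets were made together is not given in the sources used here. Any difference between the sets cannot be told apart from that between EIF4A2 KO or SBP-eIF4A2 cells and the other cells. Nor can it be told apart from that between RNA-seq and the profiling of naive and EIF4A1 KO cells.

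Immediate early genes are transcribed within minutes of a growth factor, stress or calcium signal, from factors already present in the cell, and most of their mRNAs and proteins are short-lived. AP-1 and EGR1 pass the signal on to later genes, while DUSP1 removes phosphate from MAP kinases and so closes a feedback loop. PP242 blocks the mTOR kinase. The mRNAs best known to stop being translated then are the TOP mRNAs, which start with a C and a run of pyrimidines and are bound by LARP1, whereas eIF4A1 and its paralog eIF4A2 are RNA helicases of translation initiation.

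In GRCh38.p14, the RefSeq gene spans are chr14:75278828-75282230 for FOS, chr11:65892049-65900545 for FOSL1, chr1:58780791-58784047 for JUN, chr19:12791486-12793315 for JUNB, chr19:18279694-18281622 for JUND, chr5:138465479-138469303 for EGR1, chr19:13150411-13154911 for IER2 and chr5:172768096-172771195 for DUSP1. Promoters are shown because sites for signal-responsive factors are known in genes of this class. The 150 bases just upstream of the gene start are printed below, 5′ to 3′ on the strand of the gene, for the 6 members whose footprints lay above both DMSO libraries in both PP242 libraries of EIF4A1 KO cells. Capitals mark TGACG or its reverse complement CGTCA, the core of the cAMP response element bound by CREB and ATF proteins, and in EGR1 also the CArG boxes, which are the binding sequence of serum response factor.
JUN promoter, chr1:58784048-58784197, minus strand: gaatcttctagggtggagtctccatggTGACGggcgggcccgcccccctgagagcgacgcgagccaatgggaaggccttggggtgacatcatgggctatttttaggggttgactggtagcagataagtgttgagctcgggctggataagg
JUNB promoter, chr19:12791336-12791485, plus strand: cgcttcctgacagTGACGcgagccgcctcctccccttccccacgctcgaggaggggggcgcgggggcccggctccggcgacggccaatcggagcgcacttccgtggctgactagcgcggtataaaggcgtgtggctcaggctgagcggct
JUND promoter, chr19:18281623-18281772, minus strand: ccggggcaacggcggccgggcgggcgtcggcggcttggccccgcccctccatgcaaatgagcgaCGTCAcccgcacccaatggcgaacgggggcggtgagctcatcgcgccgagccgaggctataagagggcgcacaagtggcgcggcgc
EGR1 promoter, chr5:138465329-138465478, plus strand: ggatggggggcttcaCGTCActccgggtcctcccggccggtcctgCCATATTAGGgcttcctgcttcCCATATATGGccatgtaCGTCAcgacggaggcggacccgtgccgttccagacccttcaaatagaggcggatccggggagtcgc
IER2 promoter, chr19:13150261-13150410, plus strand: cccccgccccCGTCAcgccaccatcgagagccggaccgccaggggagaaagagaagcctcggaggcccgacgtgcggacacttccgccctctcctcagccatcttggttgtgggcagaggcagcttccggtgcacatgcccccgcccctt
DUSP1 promoter, chr5:172771196-172771345, minus strand: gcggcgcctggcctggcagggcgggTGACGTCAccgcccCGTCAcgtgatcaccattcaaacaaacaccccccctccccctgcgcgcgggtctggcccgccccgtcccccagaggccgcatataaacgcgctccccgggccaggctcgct
TGACG was searched on both strands in the same window of every gene in the table. It stood in 7 of the 7 members found there (the 6 above and FOS) and in 15.4% of 35116 promoters. The full element TGACGTCA, which contains TGACG, stood only in DUSP1 among these 7 and in 1.4% of promoters. A CArG box was found in EGR1, at 2 places, and in 0.769% of promoters. TATAAA, searched on both strands, was present in FOS, JUNB and DUSP1 and in 6.71% of promoters. None of the 7 genes had a start with C followed by 4 pyrimidines, compared with 4.07% of all starts in the table. These matches describe letters in a window and are neither binding sites nor tests.

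Depth differed by assay. Counts summed over 1 transcript per locus ranged from 2515013 to 6420287 in the 12 ribosome profiling libraries, from 19706862 to 21631521 in the 4 RNA-seq libraries and from 11890148 to 17642738 in the 15 pulldown libraries. Profiling depth also differed by treatment. EIF4A1 KO cells had 2748706 and 2515013 in DMSO, 3982482 at 1 µM and 6420287 at 10 µM PP242. Naive cells had 5510071 and 6390350 in DMSO, 3990353 at 1 µM and 2686665 at 10 µM. EIF4A2 KO cells had 4991060 and 5388072 in DMSO, 4359533 at 1 µM and 5044055 at 10 µM. Any effect of depth on the PP242 calls was not tested. Levels are given as CPM, the counts per 1000000 of that sum after TMM scaling within each assay, and between genes only as CPM per 1000 units of deposited length. All are shares of a library, and in bulk RNA fewer cells with a transcript and less of it per cell cannot be told apart.

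JUN was by far the most abundant member. In naive DMSO cells its footprints reached 284 and 292 CPM per 1000 length units, the 91.3 percentile of 25687 transcripts with a count and a length of at least 50. IER2 followed with 90.7 and 113, JUND with 64.3 and 63.8, DUSP1 with 52.0 and 62.6, JUNB with 32.7 and 33.4, FOSL1 with 27.4 and 23.8, EGR1 with 10.5 and 11.4, and FOS with 1.57 and 3.63. No neighbours in this order overlapped, but JUND and DUSP1 differed by less than the SD of DUSP1 (64.0 ± 0.339 against 57.3 ± 7.47, SD, n = 2). FOS thus stood at the bottom, with 3 and 8 footprints in the naive DMSO libraries.

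The RNA of the same members had nearly the same order, except that EGR1 was last. Mean RNA levels in naive cells were 253 CPM per 1000 length units for JUN, 88.4 for IER2, 44.8 for JUND, 41.1 for DUSP1, 26.8 for JUNB, 3.80 for FOSL1, 2.53 for FOS and 0.944 for EGR1 (n = 2). EGR1 and FOSL1 had many more footprints than their RNA share. The log2 ratio of footprint to RNA share in naive cells was 3.30 for EGR1 (3.15 to 3.46 over pairs of libraries; 99 percentile of 25458 transcripts) and 2.64 for FOSL1 (2.24 to 3.11; 98 percentile), against 0.05 to 0.52 for the other 6 and a median of −0.09 over all transcripts. The EGR1 ratio rests on 10 and 11 RNA counts and on 29 and 36 footprints. It was 3.26 in EIF4A1 KO cells, where FOSL1 stood at 2.10. Nothing in the labels says that the RNA-seq and profiling libraries came from the same cultures. RNA of these genes also differed between experiments. Mean EGR1 RNA was 0.504 CPM in naive RNA-seq, 1.17 in SBP-eIF4A1 inputs without siRNA and 3.07 in siControl inputs. FOSL1 RNA was 0.997, 1.66 and 2.64 CPM in the same order. JUND RNA was 15.1, 57.7 and 44.3 CPM, whereas IER2 RNA was 18.9, 18.3 and 12.6 CPM. Whether such differences enter the ratios was not tested.

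**Figure D1:**
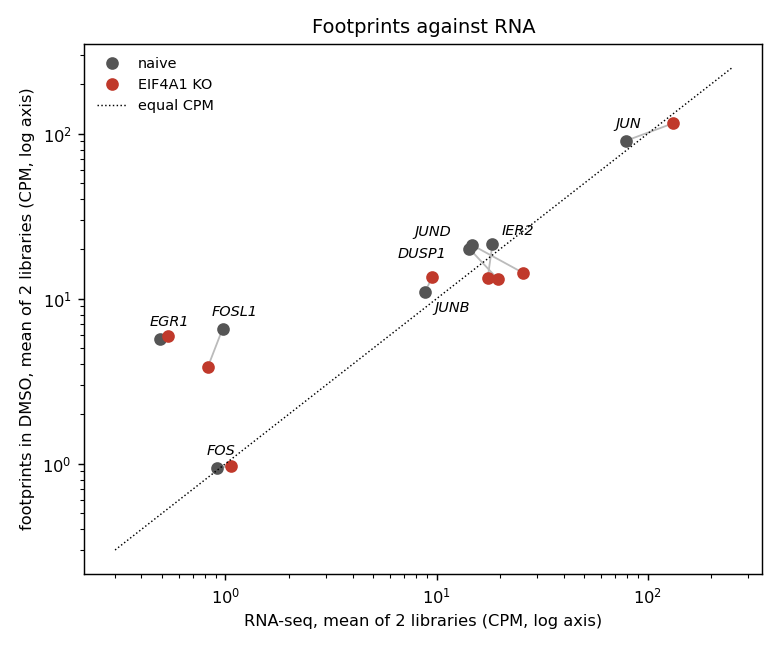
Mean footprints in DMSO (vertical, CPM after TMM scaling, log axis) against mean RNA (horizontal, CPM after TMM scaling, log axis) for the 8 members in naive cells (grey) and EIF4A1 KO cells (red), each the mean of 2 libraries, with a grey line joining the genotypes of a gene and a dotted line at equal values. EGR1 and FOSL1 sit far above the dotted line in both genotypes (log2 ratios of 3.30 and 2.64 in naive cells).

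EIF4A1 KO cells had more RNA of JUN, JUND and DUSP1 than naive cells, and fewer footprints per RNA on JUND, DUSP1 and JUN. By edgeR's quasi-likelihood test with Benjamini-Hochberg adjustment over all transcripts, 3 of 8 members had higher RNA in EIF4A1 KO cells and 0 had lower RNA, where 18.1% of 25744 transcripts were called higher and 18.4% lower. The median change was 0.18 on the log2 scale over the members and −0.0025 over all transcripts.

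JUN, the AP-1 subunit activated by JNK kinases, had RNA levels of 84.5 and 78.2 CPM in the naive libraries and 127 and 145 CPM in the EIF4A1 KO libraries. The change was 0.74 (log2, SE 0.05; edgeR adjusted p = 7.49e-13). JUND, an AP-1 subunit that is less signal-dependent, went from 16.4 and 13.9 CPM to 26.4 and 26.7 CPM, a change of 0.81 (SE 0.09; edgeR adjusted p = 1.24e-08). For DUSP1 the libraries read 15.5 and 13.97 CPM in naive and 19.6 and 20.6 CPM in EIF4A1 KO cells, a change of 0.45 (SE 0.10; edgeR adjusted p = 0.000366). These 3 calls were made in each of the 4 fits that left out a library. The other 5 members did not pass, with −0.24 for FOSL1, −0.07 for IER2, 0.11 for JUNB, 0.13 for EGR1 and 0.23 for FOS. Both EIF4A1 KO libraries lay above both naive libraries in the 3 called members, which held for 33% of transcripts, and below them in 0 members, where 33.7% of transcripts did.

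Footprints in DMSO moved differently from RNA. FOS was too low to be tested here, so 7 members were. JUN was higher in EIF4A1 KO cells and JUND, IER2 and DUSP1 were lower, where 10.9% of 19844 transcripts were called higher and 11.9% lower. JUN had 91.6 and 94.0 CPM of footprints in naive cells and 115 and 123 CPM in EIF4A1 KO cells (change 0.36, SE 0.09; edgeR adjusted p = 0.00166). JUND fell from 21.7 and 21.6 CPM to 12.5 and 17.0 CPM (change −0.56, SE 0.20; edgeR adjusted p = 0.0295). IER2, a nuclear protein induced by serum, fell from 19.4 and 24.3 CPM to 12.9 and 14.5 CPM (change −0.68, SE 0.21; edgeR adjusted p = 0.00861). DUSP1 fell from 18.6 and 22.4 CPM to 16.3 and 10.8 CPM (change −0.59, SE 0.21; edgeR adjusted p = 0.0279). Both KO libraries lay above both naive libraries in JUN and JUNB, which held for 28.5% of transcripts, and below them in JUND, IER2, DUSP1 and FOSL1, which held for 31.1%. These calls were less firm than those on RNA: without naive DMSO replicate 2 only JUN passed, without EIF4A1 KO DMSO replicate 1 only JUN and DUSP1, without EIF4A1 KO DMSO replicate 2 only IER2 and JUND, and DESeq2 called only JUN and gave no adjusted p for 2 of the 7. JUNB, another AP-1 subunit, had a change of 0.31, EGR1 of 0.07 and FOSL1, a FOS-related partner of the JUN proteins, of −0.75 (edgeR adjusted p = 0.131), none of which passed.

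Setting footprints against RNA in 1 model, as the interaction of assay and genotype, gave 3 members with fewer footprints per RNA in EIF4A1 KO cells and 0 with more, where 5.74% of 25458 transcripts were called lower and 3.74% higher. The interaction was −1.38 for JUND (95% interval −1.81 to −0.95; edgeR adjusted p = 7.09e-07), −1.05 for DUSP1 (−1.50 to −0.60; edgeR adjusted p = 0.000458) and −0.39 for JUN (−0.60 to −0.18; edgeR adjusted p = 0.00606). JUND thus lay at the 4.95 percentile of all transcripts, DUSP1 at the 7.55 percentile and JUN at the 25.4 percentile. IER2, with −0.62, did not pass (edgeR adjusted p = 0.0654). JUN lost its call without EIF4A1 KO RNA replicate 2, and IER2 passed without naive DMSO replicate 1 or without naive RNA replicate 2. JUNB stood at 0.19, EGR1 at −0.07, FOS at −0.24 and FOSL1 at −0.53, with intervals that all included 0. The median over the members was −0.46, against −0.04 over all transcripts. The RNA-seq libraries had no named treatment, and their titles are styled differently from those of these DMSO profiling libraries. Assay and set therefore cannot be told apart here, and whether this enters the interaction was not tested.

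**Figure D2:**
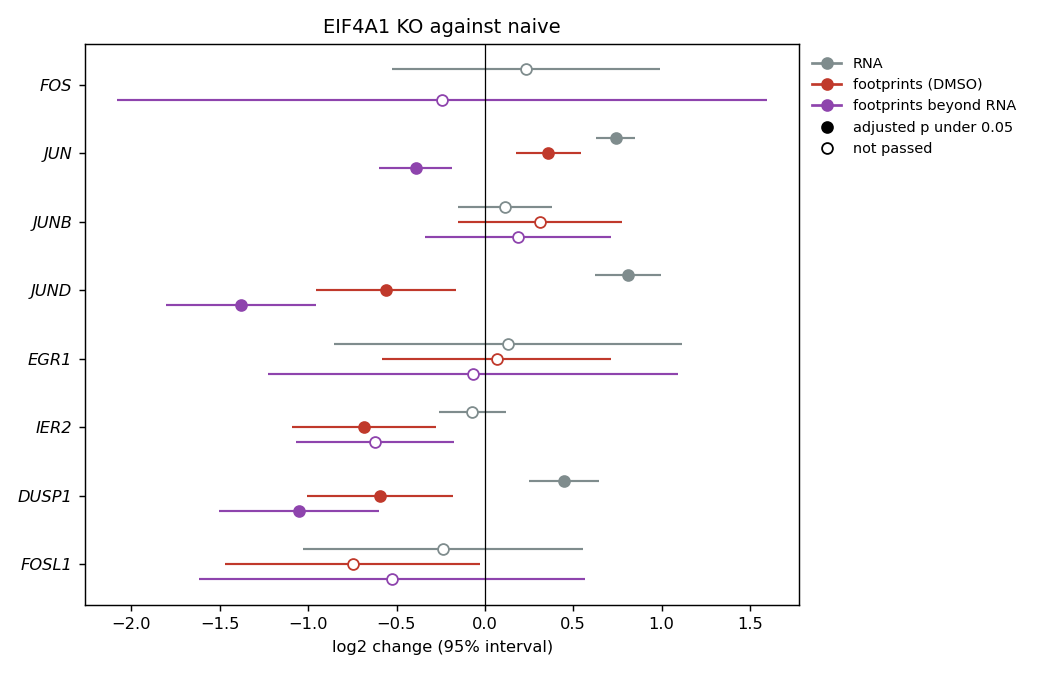
Log2 change in EIF4A1 KO against naive cells for each member (rows), for RNA (grey), footprints in DMSO (red) and footprints beyond RNA, the interaction (purple), with 95% intervals; filled points passed an adjusted p of 0.05 and open points did not. For JUND and DUSP1 the RNA points lie right of 0 (0.81 and 0.45) and the footprint points left of it (−0.56 and −0.59).

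EIF4A2 KO cells had no RNA-seq here. In DMSO, their JUN and JUND footprints were higher than in naive cells and FOSL1 footprints were lower, so that 2 of 7 members were called higher and 1 lower, where 3.73% of transcripts were called higher and 4.31% lower. JUN had 176 and 154 CPM (change 0.82, SE 0.08; edgeR adjusted p = 1.04e-15) and JUND 36.8 and 32.4 CPM (change 0.67, SE 0.14; edgeR adjusted p = 0.000222). FOSL1 had 7.18 and 6.23 CPM in naive cells and 3.40 and 2.56 CPM in EIF4A2 KO cells (change −1.16, SE 0.32; edgeR adjusted p = 0.00911), from 37 footprints in each naive library and 16 and 13 in the KO libraries. The FOSL1 call was lost without naive DMSO replicate 1 or EIF4A2 KO DMSO replicate 2, and DESeq2 gave it no adjusted p. EGR1 stood at 0.57, IER2 at −0.36, DUSP1 at −0.26 and JUNB at −0.11, and none passed.

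Set directly against each other, the knockouts differed in JUN (−0.46, edgeR adjusted p = 9.85e-06) and JUND (−1.23, edgeR adjusted p = 3.34e-08), both lower in EIF4A1 KO cells, where 11.6% of transcripts were lower and 11% higher. Both calls were made in every fit that left out a library. JUNB (0.43), FOSL1 (0.42), EGR1 (−0.50), DUSP1 (−0.33) and IER2 (−0.32) did not pass. Against naive cells, the JUND estimate was −0.56 in EIF4A1 KO cells (−0.79 to −0.35 over the alternative fits). In EIF4A2 KO cells it was 0.67 (0.58 to 0.76). The sign held in both, but the EIF4A1 KO call was the less firm. DESeq2 did not make it, and it depended on single libraries, naive DMSO replicate 1 among them. The EIF4A2 KO libraries carry the differently styled titles, with the limit given above.

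Footprints of JUN, JUNB, JUND, EGR1 and IER2 rose with PP242 in EIF4A1 KO cells when both doses were tested together against DMSO. In naive cells the only call was a fall of DUSP1, and in EIF4A2 KO cells no member passed. Testing both doses together was chosen with the levels at 1 and 10 µM already known. The adjusted p-values for PP242 are therefore not those of a test fixed in advance. A slope over a dose score of 0, 1 and 2, or over log2(dose + 1), called 0 members in each genotype. RNA was not measured under PP242, so footprints after 30 min can reflect a change of RNA as well as of translation. The fit used all 12 profiling libraries. FOS passed its filter only through its highest libraries, naive and EIF4A1 KO at 1 µM, with 10 and 14 footprints.

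In naive cells, 1 of 8 members was called lower and 0 higher, where 5.71% of 20505 transcripts were called lower and 3.68% higher. DUSP1 had 18.6 and 22.4 CPM in DMSO, 15.03 CPM at 1 µM and 11.5 CPM at 10 µM, a change of −0.60 (SE 0.19; edgeR adjusted p = 0.0329). Both PP242 libraries were below both DMSO libraries. The call was lost without naive DMSO replicate 2 or without either PP242 library, while JUN was called without the 10 µM library. JUNB showed the same order, with 11.1 and 11.3 CPM in DMSO against 6.68 and 6.84 CPM, but did not pass (−0.72, edgeR adjusted p = 0.0819), and FOSL1 read 7.18 and 6.23 CPM in DMSO against 4.30 and 2.88 CPM (−0.84, edgeR adjusted p = 0.103). JUN read 130 CPM at 1 µM and 94.7 CPM at 10 µM, a change of 0.30 that missed the threshold (edgeR adjusted p = 0.0527) and passed it with other size factors, without the filter on low counts or with all distinct transcripts. JUND (−0.06), EGR1 (−0.31), IER2 (−0.25) and FOS (0.89) did not pass either. JUNB, EGR1, DUSP1 and FOSL1 had both PP242 libraries below both DMSO libraries, which held for 25.2% of transcripts, and JUN had both above, which held for 24.4%.

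In EIF4A1 KO cells, 5 of 8 members were called higher and 0 lower, where 2.32% of transcripts were called higher and 3.7% lower. JUN rose from 115 and 123 CPM in DMSO to 175 CPM at 1 µM and 178 CPM at 10 µM (change 0.57, SE 0.10; edgeR adjusted p = 3.71e-05). JUND rose from 12.5 and 17.0 CPM to 27.7 and 25.3 CPM (change 0.84, SE 0.19; edgeR adjusted p = 0.00177). For these genes the 2 doses gave nearly the same level.

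JUNB, EGR1 and IER2 had their highest level in the 1 µM library. JUNB read 11.8 and 16.1 CPM in DMSO, 31.0 CPM at 1 µM and 18.1 CPM at 10 µM (change 0.77, SE 0.22; edgeR adjusted p = 0.0229). EGR1 read 5.69 and 6.61 CPM in DMSO, 18.1 CPM at 1 µM and 9.07 CPM at 10 µM, from 15, 16, 76 and 62 footprints (change 1.06, SE 0.32; edgeR adjusted p = 0.0309). IER2 read 12.9 and 14.5 CPM in DMSO, 27.4 CPM at 1 µM and 17.8 CPM at 10 µM (change 0.68, SE 0.22; edgeR adjusted p = 0.0456). The 1 µM library of EIF4A1 KO cells had the highest footprint level of all 12 profiling libraries for JUNB, EGR1, IER2 and FOS. DUSP1, with 16.3 and 10.8 CPM in DMSO and 20.0 and 18.6 CPM with PP242, did not pass (0.49, edgeR adjusted p = 0.181), nor did FOSL1 (0.22) or FOS (0.88), with 0.758 and 1.24 CPM in DMSO, 3.34 CPM at 1 µM and 0.878 CPM at 10 µM. In 6 members both PP242 libraries lay above both DMSO libraries, which held for 24.6% of transcripts, and in 0 members below them, where 23.8% did.

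The strength of this set of calls depended on single libraries and on how dose was coded. Without the 1 µM library, JUN and JUND remained called. Without EIF4A1 KO DMSO replicate 1 only JUN remained, without EIF4A1 KO DMSO replicate 2 JUN, JUNB and JUND, and without the 10 µM library all 5. DESeq2 called JUN and JUND and gave no adjusted p for FOS, JUNB, EGR1 and FOSL1. A slope over a dose score of 0, 1 and 2, or over log2(dose + 1), called 0 of 8 members and 0 of 20505 transcripts in EIF4A1 KO cells.

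**Figure D3:**
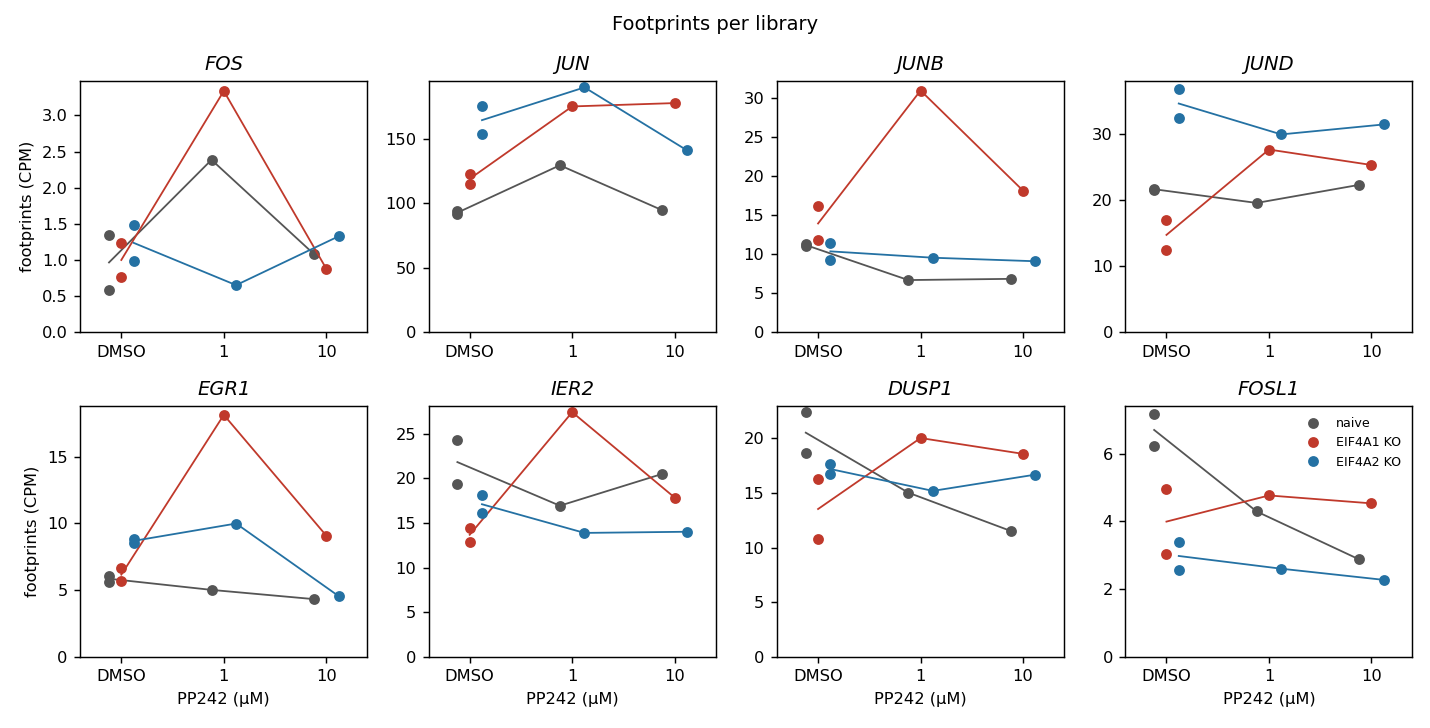
Footprints (CPM, vertical) of each member in every profiling library against treatment (DMSO, 1 µM or 10 µM PP242) in naive (grey), EIF4A1 KO (red) and EIF4A2 KO cells (blue); points are libraries and lines join their means, with 2 libraries in DMSO and 1 at each dose. The red line peaks at 1 µM for JUNB (31.0 CPM), EGR1 (18.1 CPM), IER2 (27.4 CPM) and FOS (3.34 CPM).

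In EIF4A2 KO cells 0 of 8 members passed in edgeR, 0 had an unadjusted p under 0.05 and DESeq2 called 0, with no adjusted p for 3, where edgeR called 4.59% of transcripts higher and 7.11% lower and 4808 of 20505 had an unadjusted p under 0.05. Values ran from −0.29 for IER2 to 0.00 for JUN, whose libraries read 176 and 154 CPM in DMSO, 190 CPM at 1 µM and 141 CPM at 10 µM. JUND read 36.8 and 32.4 CPM in DMSO and 29.9 and 31.5 CPM with PP242, a change of −0.17 (95% interval −0.44 to 0.10). EGR1 read 8.51 and 8.85 CPM in DMSO, 9.98 CPM at 1 µM and 4.55 CPM at 10 µM (change −0.29). JUNB stood at −0.15, DUSP1 at −0.10, FOSL1 at −0.28 and FOS at −0.27. In JUND, IER2 and DUSP1 both PP242 libraries lay below both DMSO libraries, which held for 25.3% of transcripts, and in 0 members above them, where 26.4% of transcripts did.

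The difference in response between genotypes was tested directly, with both doses together, and the calls below were not made under either other coding of dose. Against naive cells the response of EIF4A1 KO cells was higher for 4 members and lower for 0, where 3.61% of transcripts were called higher and 2.45% lower. The difference was 1.49 for JUNB (SE 0.35; edgeR adjusted p = 0.00322), 1.09 for DUSP1 (SE 0.29; edgeR adjusted p = 0.00964), 0.93 for IER2 (SE 0.28; edgeR adjusted p = 0.0344) and 0.90 for JUND (SE 0.25; edgeR adjusted p = 0.0174). EGR1 had 1.36 (edgeR adjusted p = 0.0788), FOSL1 1.06 (edgeR adjusted p = 0.236), JUN 0.27 (edgeR adjusted p = 0.317) and FOS −0.01. Against EIF4A2 KO cells it was higher for 4 members, where 3.7% of transcripts were called higher and 2.52% lower. These were EGR1 with 1.34 (SE 0.43; edgeR adjusted p = 0.0432), JUND with 1.01 (SE 0.23; edgeR adjusted p = 0.00264), IER2 with 0.97 (SE 0.29; edgeR adjusted p = 0.0296) and JUN with 0.57 (SE 0.14; edgeR adjusted p = 0.00423). JUNB had 0.91 (edgeR adjusted p = 0.0866), DUSP1 0.60 (edgeR adjusted p = 0.224), FOSL1 0.51 and FOS 1.15. Both comparisons use the same EIF4A1 KO libraries. DESeq2 called 0 members against naive cells, with no adjusted p for 5, and only JUND against EIF4A2 KO cells, with no adjusted p for 6. A slope over the dose score or over log2(dose + 1) called 0 members in both. Of 20505 transcripts, the dose score called 2 against naive and 1 against EIF4A2 KO cells, and log2(dose + 1) called 0 in either. These slopes therefore say nothing particular about the members. EIF4A2 KO and naive cells differed in 0 members in edgeR (1 had an unadjusted p under 0.05, and DESeq2 gave no adjusted p for the 8), where 0.0683% of transcripts were called and 1314 of 20505 had an unadjusted p under 0.05. The values were 0.58 for JUNB, 0.55 for FOSL1, 0.50 for DUSP1, 0.02 for EGR1, −0.04 for IER2, −0.11 for JUND, −0.30 for JUN and −1.16 for FOS.

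Leaving out 1 library moved these counts from 4 to between 1 and 5 against naive cells and to between 0 and 5 against EIF4A2 KO cells. Against naive cells, only JUNB remained without naive DMSO replicate 2, only JUNB and JUND without EIF4A1 KO DMSO replicate 2, and only DUSP1 without EIF4A1 KO DMSO replicate 1 or the EIF4A1 KO 1 µM library. Against EIF4A2 KO cells, 0 members remained without EIF4A1 KO DMSO replicate 1, only JUND without EIF4A2 KO DMSO replicate 1 or the EIF4A2 KO 10 µM library, and only JUN and JUND without EIF4A1 KO DMSO replicate 2 or the EIF4A1 KO 1 µM library. The EIF4A1 KO DMSO libraries, which enter every one of these differences, held 2 to 3 footprints of FOS and 26 to 43 of DUSP1, JUND, IER2 and JUNB. The same libraries enter the DMSO footprint, footprint-per-RNA and PP242 results of EIF4A1 KO cells above, so these results are not independent of each other.

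**Figure D4:**
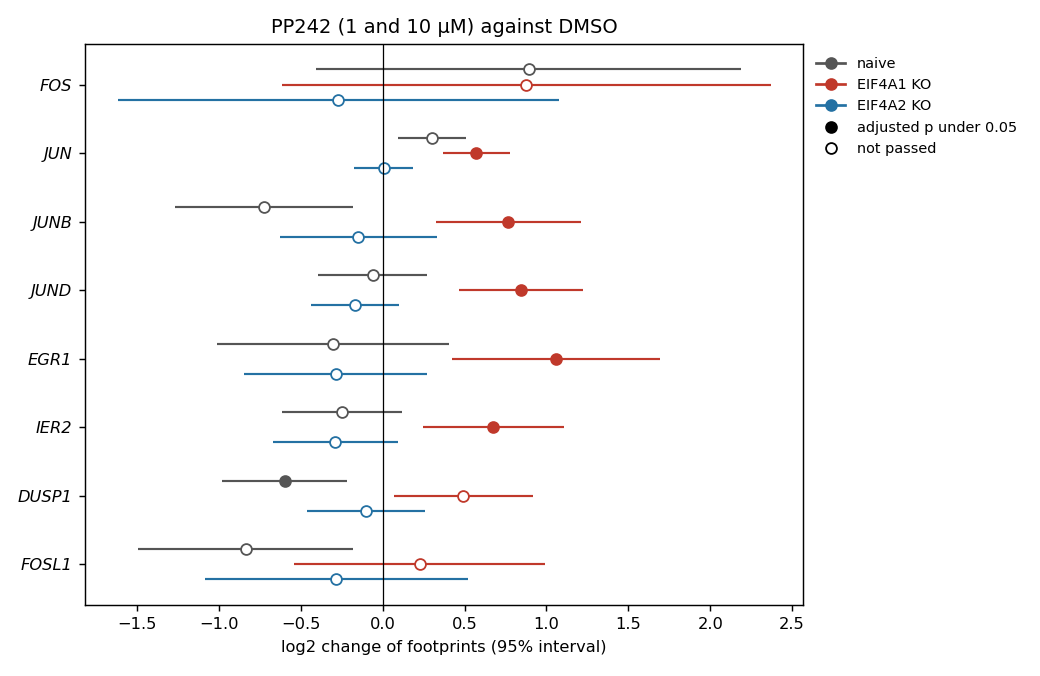
Log2 change of footprints with PP242 (both doses together) against DMSO for each member in naive (grey), EIF4A1 KO (red) and EIF4A2 KO cells (blue), with 95% intervals from a fit over all 12 profiling libraries; filled points passed an adjusted p of 0.05. The filled red points are JUN, JUNB, JUND, EGR1 and IER2, all right of 0.

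Pulldown with the tagged helicases enriched the RNA of JUN, JUNB, JUND and IER2 over input with either protein. With SBP-eIF4A1, 4 of 8 members were called enriched and 0 depleted, where 28.7% of 26600 transcripts were enriched and 26.7% depleted. JUND stood out among the members: its input libraries read 55.2 and 60.2 CPM and its pulldown libraries 263 and 289 CPM, a log2 enrichment of 2.28 (SE 0.08; edgeR adjusted p = 3.41e-13), at the 99.1 percentile. JUNB had 11.9 and 11.9 CPM in input and 20.8 and 26.8 CPM in pulldown (1.03, SE 0.14; edgeR adjusted p = 7.73e-06). IER2 had 18.5 and 18.0 CPM against 34.2 and 36.2 CPM (0.97, SE 0.10; edgeR adjusted p = 2.05e-07), and JUN 126 and 133 CPM against 185 and 194 CPM (0.58, SE 0.07; edgeR adjusted p = 2.32e-06). JUNB lay at the 85.7 percentile of all transcripts, IER2 at the 84.2 percentile and JUN at the 72.0 percentile. The 4 calls were made in each fit that left out a library. Both pulldown libraries lay above both inputs in 7 members, all but FOSL1, which held for 40.3% of transcripts, and below them in 0 members, where 39.8% of transcripts did. EGR1 (0.82, edgeR adjusted p = 0.0586), FOS (0.64, edgeR adjusted p = 0.106), DUSP1 (0.17) and FOSL1 (0.05) did not pass, though EGR1 and FOS did when only these libraries were fitted.

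With SBP-eIF4A2, JUN, JUNB, JUND, EGR1 and IER2 were enriched, 5 of 8 members, with 0 depleted, where 29.8% of transcripts were enriched and 30% depleted. JUND read 46.3 and 50.2 CPM in input and 179 and 161 CPM in pulldown (1.84, SE 0.07; edgeR adjusted p = 2.36e-12). EGR1 read 1.39 and 1.52 CPM against 3.66 and 4.64 CPM (1.54, SE 0.29; edgeR adjusted p = 0.000207), from 24 and 27 counts in input. IER2 had an enrichment of 1.19, JUNB of 1.07 and JUN of 0.54, while FOS (0.65), FOSL1 (0.67) and DUSP1 (0.15) did not pass. Without SBP-eIF4A2 pulldown replicate 2, FOS and FOSL1 passed as well.

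Between the proteins, 1 of 8 members was called, where 10.4% of transcripts were higher and 5.3% lower. This was JUND, 0.44 higher with SBP-eIF4A1 (95% interval 0.21 to 0.66, edgeR adjusted p = 0.0085), at the 79.2 percentile of this difference. The call was lost without SBP-eIF4A1 input replicate 1, SBP-eIF4A1 pulldown replicate 2 or SBP-eIF4A2 input replicate 2. Comparisons of the proteins, and of their inputs, also run across the differently titled sets. JUN differed by 0.04 (95% interval −0.17 to 0.25), JUNB by −0.04 (−0.46 to 0.38) and IER2 by −0.22 (−0.51 to 0.08), whereas the interval for EGR1 was wide (−0.71, −1.69 to 0.27). FOSL1 differed by −0.62, DUSP1 by 0.02 and FOS by −0.01. Inputs of SBP-eIF4A1 cells held more RNA of IER2 (0.43), DUSP1 (0.39) and JUND (0.26) than those of SBP-eIF4A2 cells, 3 of 8 members by edgeR, where 8.77% of transcripts were higher and 9.69% lower. These 3 calls fell to 0 without SBP-eIF4A1 input replicate 1 or 2 or SBP-eIF4A2 input replicate 1, and to IER2 alone without SBP-eIF4A2 input replicate 2. FOS (0.47), JUNB (0.31), FOSL1 (0.18), JUN (−0.09) and EGR1 (−0.31) did not pass.

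**Figure D5:**
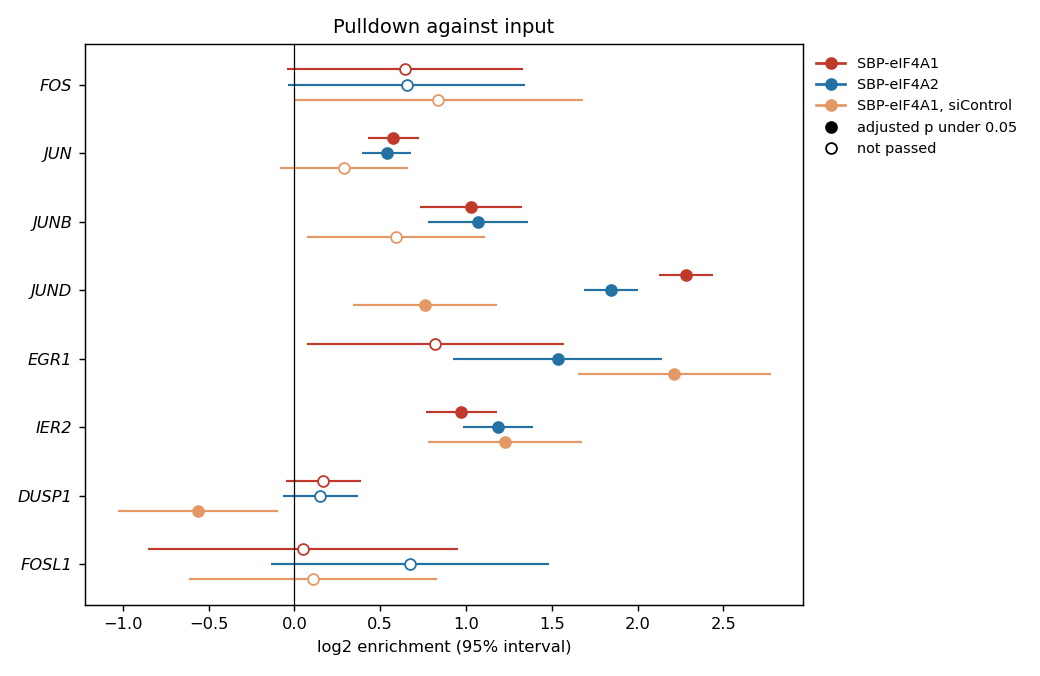
Log2 enrichment of each member in pulldown over input with 95% intervals, for SBP-eIF4A1 (red), SBP-eIF4A2 (blue) and SBP-eIF4A1 after control siRNA (orange); filled points passed an adjusted p of 0.05. JUND has the highest points with both proteins (2.28 and 1.84), and EGR1 with control siRNA (2.21).

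After 72 h of control siRNA, the ranking of the members in the SBP-eIF4A1 pulldown was different. EGR1 led with a log2 enrichment of 2.21 (SE 0.28; edgeR adjusted p = 8.8e-09), from 2.87 and 3.28 CPM in input to 14.2 and 14.9 CPM in pulldown. IER2 read 14.7 and 10.4 CPM in input against 35.0 and 25.6 CPM (1.23, SE 0.22; edgeR adjusted p = 1.26e-05), and JUND 49.1 and 39.5 CPM against 91.5 and 62.1 CPM (0.76, SE 0.21; edgeR adjusted p = 0.0022). DUSP1 was depleted, with 12.5 and 15.4 CPM in input and 9.54 and 9.69 CPM in pulldown (−0.56, SE 0.23; edgeR adjusted p = 0.041). That made 3 of 8 members enriched and 1 depleted, where 25.2% of 26707 transcripts were enriched and 24.1% depleted. JUN (0.29), JUNB (0.59), FOS (0.84) and FOSL1 (0.11) did not pass. The DUSP1 call was lost in DESeq2, with no filter on low counts, and without siControl input replicate 2 or either siControl pulldown library. The JUND call was lost without siControl input replicate 2 or siControl pulldown replicate 1.

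The difference between the experiments with and without siRNA was tested in 1 fit. Enrichment was lower for JUND by 1.46 (edgeR adjusted p = 7.76e-05) and for DUSP1 (−0.66, edgeR adjusted p = 0.0167), and higher for EGR1 by 1.46 (edgeR adjusted p = 0.00616), where 26.4% of 26115 transcripts were higher and 23.8% lower. Without SBP-eIF4A1 input replicate 2 only JUND passed, and DUSP1 was also lost without SBP-eIF4A1 input replicate 1, SBP-eIF4A1 pulldown replicate 2 or siControl input replicate 2. JUNB (−0.38), JUN (−0.22), IER2 (0.31), FOS (0.25) and FOSL1 (0.12) did not pass. The inputs differed too: EGR1 RNA was higher after control siRNA (1.37, edgeR adjusted p = 0.00163) and DUSP1 (−0.69), JUNB (−0.76), JUN (−0.61) and IER2 (−0.52) were lower, 1 member higher and 4 lower, where 23% of transcripts were higher and 22.9% lower. Only EGR1, DUSP1 and JUN passed without siControl input replicate 2. JUND (−0.38), FOS (−0.37) and FOSL1 (0.68) did not pass. The siRNA and the experiment it belonged to cannot be told apart, and no library without siRNA belongs to that set here.

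LARP1 siRNA left no member called in the inputs: 0 of 8 passed in edgeR, 2 had an unadjusted p under 0.05, DESeq2 called 0 with no adjusted p for 5, and 0.517% of 26707 transcripts were called in edgeR, with 3225 at an unadjusted p under 0.05. JUN read 83.1 and 86.6 CPM with control siRNA and 126 and 115 CPM with LARP1 siRNA (0.49, edgeR adjusted p = 0.236), and JUNB 8.32 and 5.43 CPM against 9.22 and 13.5 CPM (0.68, edgeR adjusted p = 0.239). IER2 stood at 0.36, FOSL1 at 0.20, DUSP1 at 0.15, JUND at 0.12, FOS at −0.05 and EGR1 at −0.44. Both siLARP1 inputs lay above both siControl inputs in 5 members (JUN, JUNB, IER2, DUSP1 and FOSL1), which held for 21.9% of transcripts, and below them in EGR1, which held for 20.8%. The siLARP1 pulldown had 1 library, so how enrichment changed is a value with no test. It was −0.23 for JUN, −0.22 for JUNB, −0.07 for FOSL1, −0.06 for JUND and IER2, −0.0033 for DUSP1, 0.01 for EGR1 and 0.28 for FOS, with a median of −0.06 over the members and −0.03 over 26707 transcripts, and 6 of 8 members were below 0 against 53.3% of all. With 1 library left out at a time, the change took both signs for every member but JUN (−0.33 to −0.16). The EGR1 pulldown library after LARP1 siRNA read 10.6 CPM, with inputs of 2.59 and 1.92 CPM, a change of enrichment of 0.01.

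The members did not follow each other closely across the profiling libraries. Over all 12, with the genotypes and treatments pooled, the Pearson correlation of log2 CPM was highest between JUN and JUND (r = 0.60), followed by IER2 and DUSP1 (r = 0.47), among the 5 members whose log2 CPM averaged 3 or more. JUND was the 514th most similar of 12179 transcripts to JUN, and JUNB and JUND had r = 0.01. The transcripts most like each member had r from 0.89 to 0.97, and none of them was a member. Each such r is the highest of 12179 values over 12 libraries, and so is high by selection. The points share libraries and depth, and the values are descriptive.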

How the data were processed

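Each of the 31 libraries had 1 deposited table without a header. The authors' deposited values were whole-number counts per Ensembl transcript and 1 length per transcript, whose unit is not given by the files, so the deposited length served only to scale levels between genes and to check members. Per the submitters' processing notes, CASAVA 1.8, STAR 2.7.0a and build hg38 were used; the counter and the annotation release are not given in the sources used here. Columns of other samples numbered 0.

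Transcripts that overlap share reads, since each was counted on its own. Of 94734 transcripts with a count, 77343 had distinct counts. Taken in order of total count, a transcript within 10 distinct entries of one already kept was dropped when log2 CPM (pseudocount 0.5) correlated at 0.9 or more, with members always kept, which left 35499. Such neighbours were dropped for FOS (3), FOSL1 (3) and JUND (1), and IER2 shared its counts with 2 other identifiers, so isoforms are not resolved. Reads in untranslated regions may not be counted.

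Tests used edgeR 4.0.16 in R 4.3.3: TMM scaling, filterByExpr (minimum count 10, minimum total 15), glmQLFit and glmQLFTest, two-sided, with Benjamini-Hochberg adjustment over all transcripts of a comparison, called under 0.05, with 95% intervals from the same fits. The 6 DMSO profiling libraries, and all 12 for PP242, shared 1 estimate of the spread. Footprint-to-RNA ratios added 0.1 CPM. The alternatives were RLE size factors, no filter, all distinct transcripts, DESeq2 1.42.0, a replicate block, only the groups compared, a dose score, log2(dose + 1), and leaving out each library. The edgeR fits for RNA in EIF4A1 KO against naive cells and for PP242 in EIF4A1 KO cells were tested on simulated counts. The other fits and steps were not. Same-numbered libraries were not treated as pairs in the reported fits, with 2 pairs per comparison. Correlations of their deviations ranged from −0.19 to 0.20, apart from 0.57 between siControl inputs and siControl pulldowns. That enrichment was also tested without pairs.

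The members, lists and comparisons were chosen with earlier results of these data known, including levels at 1 and 10 µM, which led to testing both doses together. Every member tested in a comparison is named there, and no other gene is: the reference tables do not pair Ensembl transcripts with symbols, so EIF4A1, EIF4A2, LARP1 and other genes of the pathway were not checked here. Promoters came from a RefSeq table by symbol (7 of 8 matched).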

Additional observations from a re-analysis of the deposited data

Results flagged for a closer look

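The PP242 response of EIF4A1 KO cells differed from that of naive cells, by edgeR's test of the difference, in JUNB (1.49 on the log2 scale), DUSP1 (1.09), IER2 (0.93) and JUND (0.90). It differed from that of EIF4A2 KO cells in EGR1 (1.345), JUND (1.012), IER2 (0.97) and JUN (0.57). Each of these values was higher in EIF4A1 KO cells, and RNA under PP242 was not measured. Of all transcripts, 3.61% were called higher against naive cells and 3.7% against EIF4A2 KO cells. DESeq2 called 0 members against naive cells, with no adjusted p for 5, and only JUND against EIF4A2 KO cells, with no adjusted p for 6. Both other dose codings called 0 members in either difference, and at most 2 of 20505 transcripts. Enrichment of JUND differed between SBP-eIF4A1 and SBP-eIF4A2 by 0.44, where 10.4% of transcripts were called higher and 5.3% lower. That call depended on single libraries and runs across the differently titled sets. Between the SBP-eIF4A1 pulldowns with and without control siRNA, enrichment differed in JUND (−1.46), EGR1 (1.46) and DUSP1 (−0.66). Over all transcripts, 26.4% were called higher and 23.8% lower there. The EGR1 and DUSP1 calls depended on single libraries, and the siRNA and its experiment cannot be told apart. No group had 4 or more libraries, so single libraries could not be tested for standing apart.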

How the results depend on the processing

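Of 226 alternative values for the counts of members called and for the siLARP1 change, 182 stayed within 1.5 times the reported count (for siLARP1, within 1 SD over members), 44 moved further, and no called member changed sign. Groups had at most 2 libraries, and the footprint counts of FOS, EGR1 and FOSL1 limit what could pass. With DESeq2 the count of members fell to 1 for DMSO footprints in EIF4A1 KO against naive cells, to 0 for PP242 in naive cells, to 2 for PP242 in EIF4A1 KO cells, and to 0 and 1 for its difference from naive and from EIF4A2 KO cells, but it gave no adjusted p for 2, 6, 4, 5 and 6 members there. Under both other dose codings the counts for PP242 in naive cells, in EIF4A1 KO cells and for both differences were 0. RLE size factors, no filter and all distinct transcripts each gave 2 for PP242 in naive cells. The causes were not tested, beyond that each dose coding assumes a trend over dose and that leaving out a library leaves fewer samples; a lone library was then assumed to vary like the other groups.

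Leaving out each library in turn gave 3 to 3 members for RNA in EIF4A1 KO cells, 1 to 3 (reported 4), 2 to 3 (reported 3) and 2 to 2 for DMSO footprints in EIF4A1 KO and EIF4A2 KO against naive cells and between them, and 2 to 4 for footprints beyond RNA. For PP242 it gave 0 to 1 in naive, 1 to 5 in EIF4A1 KO and 0 to 0 in EIF4A2 KO cells, and 1 to 5, 0 to 0 and 0 to 5 for EIF4A1 KO against naive, EIF4A2 KO against naive and EIF4A1 KO against EIF4A2 KO. For pulldown it gave 4 to 4 with SBP-eIF4A1, 5 to 7 with SBP-eIF4A2, 0 to 1 for their difference, 0 to 1 for their inputs (reported 3) and 2 to 5 after siControl. It gave 0 to 0 for siLARP1 inputs, 1 to 4 for enrichment and 3 to 6 for inputs between siControl and no siRNA. The median siLARP1 change ran from −0.30, without siControl pulldown replicate 2, to 0.0647, without siControl input replicate 2.

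The replicate block left the member counts as reported (3 for RNA, 4 for DMSO footprints in EIF4A1 KO cells) except for siControl inputs against no siRNA, where it gave 6 instead of 5. Blocks with crossed numbers, chosen after seeing the data, gave 3, 3 and 0 members for RNA, DMSO footprints in EIF4A2 KO cells and siLARP1 inputs; over all transcripts they called 9888 and 1820 for the former pair, against 9390 and 1596, and 2.66 times the reported 138 for siLARP1 inputs. Over all transcripts, testing every distinct one raised the counts 2.76 to 4.48 times, DESeq2 gave 0.33 to 2.68 times and leave-one-out fits 0.13 to 2.86 times the reported count. For PP242 in EIF4A1 KO cells edgeR called 1234 transcripts, DESeq2 750, and both other dose codings 0; in naive cells the counts were 1924, 1144, 289 for the dose score and 0 for log2(dose + 1). RLE size factors called 89 transcripts higher and 84 lower for siLARP1 inputs, against 85 and 53.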
